A study of Mus musculus with 16 samples.

Results

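Synaptic and neuronal adhesion molecules were described here as 112 genes of the 20072 in the deposited expression table. They were chosen by symbol: every neurexin (Nrxn), neuroligin (Nlgn), contactin (Cntn) and contactin-associated gene (Cntnap), SynCAM (Cadm), LRRTM, SLITRK, SALM (Lrfn), protocadherin (Pcdh), AMIGO, FLRT and teneurin (Tenm) gene, both NCAM genes, L1cam and Nrcam. The rule uses symbols and no measured value, although the set was proposed with earlier results of these data known. RNA came from small intestine, taken from Tph1-CFP mice that had received no treatment and were aged 8 to 16 weeks, in which cyan fluorescent protein (CFP) marks enterochromaffin (EC) cells, the serotonin-making endocrine cells of the gut lining. Cells of the crypt (the pit that holds stem and dividing cells) and of the villus (the finger of mature epithelium) were sorted by CFP, and each library pooled 5000 cells. This gave 4 groups of 4 libraries, all of the same genotype: the CFP+ EC cells of each site, and the remaining CFP- epithelium (epi) of each site. The study compared EC cells with their epithelial neighbours at each site, and the sites with each other.

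Adhesion molecules of this kind sit in the plasma membrane and bind partners on a neighbouring cell. Neurexins on a nerve ending bind neuroligins, LRRTM proteins and cerebellins, teneurins and FLRT proteins bind latrophilins, and AMIGO, NCAM, L1 and protocadherin proteins bind chiefly to copies of themselves. In the gut wall they are known mostly from enteric neurons and glia, and endocrine cells of the epithelium are known to form close contacts with nerve fibres.

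Values are FPKM (fragments per kilobase, relative to the library), so they are per length and can be compared between genes. Column totals ran from 731415 to 901567 in EC libraries and from 1045160 to 1415120 in epi libraries, so they differed with cell type. Per library 11318 to 13071 genes reached 1. The absolute depth is unknown, so no counting interval is given. Markers of the sort followed the labels: summed EC markers stood at 87348 to 109551 in crypt EC libraries and 84739 to 124741 in villus EC libraries, against 620 to 1976 in the epi libraries. The design text counts 4 mice or samples in each group, and no label ties a library to a mouse, so p-values measure the spread between these libraries. The spread of a gene was estimated jointly over all 4 groups, so a library can move the p-values and SE of comparisons that do not include its group. Villus epi replicate 2 stood apart from its group, with a mean correlation of 0.812 with the other 3 libraries against 0.923 to 0.926 among the rest of that group and 0.971 to 0.985 in the other groups, and results that rest on it are given with and without it. A lower value in bulk RNA can come from fewer cells that express a gene or from less RNA in each cell, and these cannot be told apart here.

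Of the 112 genes, 20 reached a mean of 5 or more in at least 1 group, 29 peaked between 1 and 5, and 63 stayed below 1 in every group. In order of their highest group mean the 20 were Amigo2 (672, crypt EC), Pcdh1 (52.8), Cntnap2 (45.9), L1cam (33.8), Ncam2 (30.2), Flrt3 (28.8, crypt epi), Pcdhgc4 (25.4), Tenm4 (14.3), Flrt1 (10.5), Pcdh9 (8.81), Cadm1 (7.21), Pcdhgc3 (7.14), Amigo1 (6.67), Pcdhgb6 (6.32), Pcdhga7 (6.30), Lrrtm1 (6.26, crypt EC), Nrcam (5.80, crypt EC), Ncam1 (5.45, crypt epi), Amigo3 (5.38) and Tenm1 (5.02). Those with no group named peaked in villus EC. So 15 of the 20 were highest in villus EC, 3 in crypt EC, 2 in crypt epi and 0 in villus epi. Just outside stood Pcdhb17 at 4.62 and Pcdhga5 at 3.65. Of all genes measured, 11311 of 20072 reached a mean of 5, so this gene set was, as a whole, low in the epithelium. By group, 13 members reached that mean in crypt EC, 18 in villus EC, 5 in crypt epi and 2 in villus epi.

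**Figure D1:**
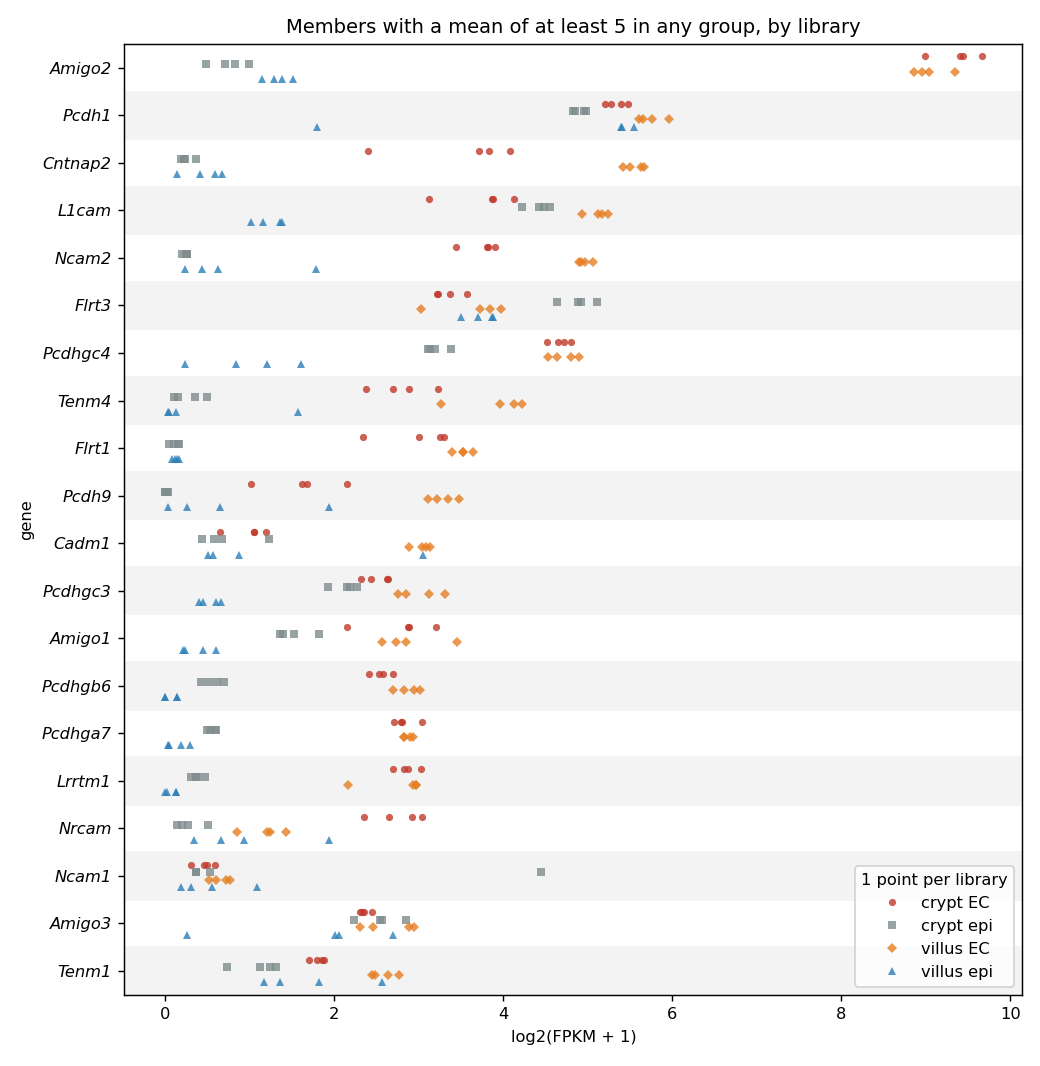
Each point is 1 library, on the x axis as log2(FPKM + 1), for the 20 genes (y axis) with a mean of at least 5 in any group, coloured by group (4 libraries in each). Amigo2 separates the EC libraries from the epi libraries by the widest gap, Ncam1 reaches the list through a single crypt epi library at 20.8, and Pcdh1 has a single low villus epi library at 2.47.

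One gene carried most of the summed level. The 112 group means added up to 898 and 884 in the EC cells of crypt and villus and to 123 and 86.9 in epi, and Amigo2 alone made up 74.8% of the crypt EC sum and 60.3% of the villus EC sum. With Amigo2 left out the EC sums were 226 and 351 and the epi sums 123 and 85.4.

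Differences between groups were tested with limma on log2(FPKM + 1), for genes that reached 1 in 4 or more libraries of the 16, and a gene was called at a Benjamini-Hochberg adjusted p below 0.05 over the 14089 genes tested. Only 41 of the 112 members passed that filter, and 71 were not tested. Of the 41, 30 had 4 or more EC libraries at 1 or above but fewer than 4 such epi libraries, 0 the reverse, and 11 passed in both cell types. Most tested members therefore entered through the EC libraries, and their counts below are given as a description of which genes were called. In the crypt 32 of the 41 were higher in EC than in epi and 2 were lower, where 23.2% and 20% of all tested genes were. In the villus 35 were higher and 0 lower (all genes: 40.6% and 21.6%). Both sites called 29 members higher (all genes: 17.5%) and 0 lower (10.7%). The median log2 difference of the tested members was 1.25 in the crypt and 1.56 in the villus, against 0.05 and 0.33 over all tested genes. A fit with no filter, over all 112 members, called 51 higher and 4 lower in the crypt (all genes: 17.6% and 13.9%) and 56 higher and 4 lower in the villus (29.9% and 16.7%). By the libraries themselves, all 4 EC libraries lay above all 4 epi libraries for 59 of the 112 in the crypt (all 20072 genes, with no filter: 26.3%) and below them for 5 (20.8%). In the villus these counts were 50 (26.4%) and 1 (14.1%), and the libraries overlapped for the other 61. Among tested genes the same separation upwards was seen for 34 members in the crypt (all genes: 31.3%) and 31 in the villus (35.1%), and downwards for 2 (28.3%) and 0 (17.8%).

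**Figure D2:**
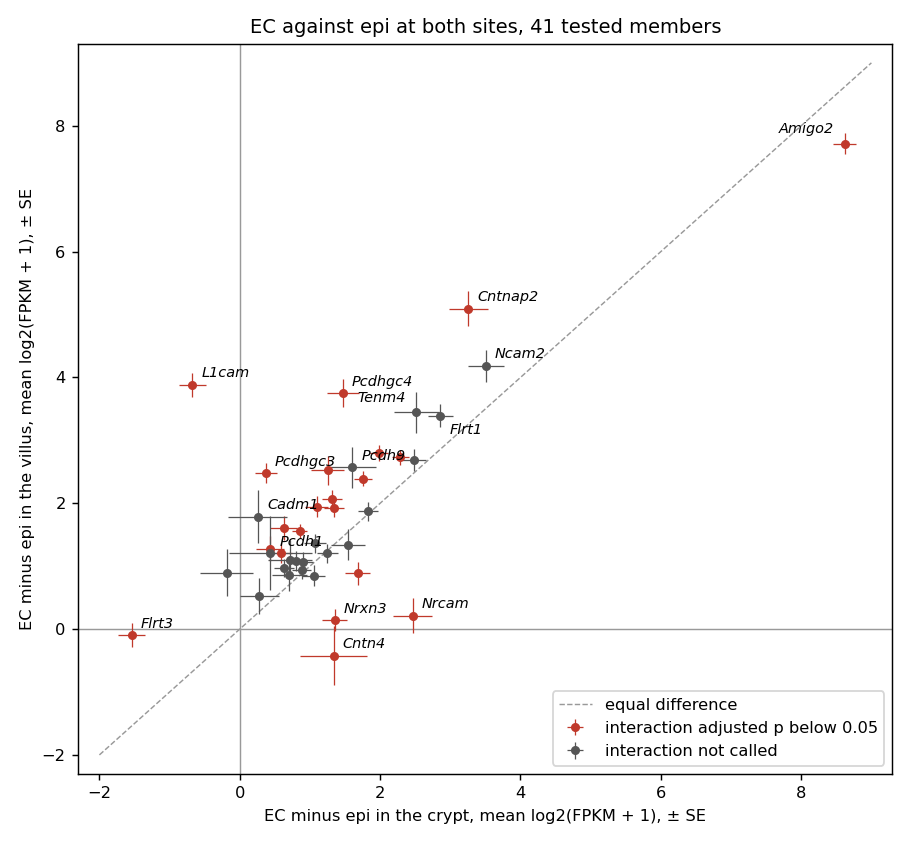
Each point is 1 of the 41 tested members, with the difference in mean log2(FPKM + 1) between EC and epi in the crypt on the x axis and in the villus on the y axis, bars ± SE of the fit, n = 4 libraries a group. Red points had a difference between the sites that passed an adjusted p of 0.05. Amigo2 lies far out near the dashed line of equal difference, L1cam and Flrt3 lie left of 0, and Nrcam, Nrxn3 and Cntn4 lie to the right of 0 in the crypt but within 0.5 of it in the villus.

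AMIGO proteins are leucine-rich repeat receptors that bind one another and support the outgrowth and bundling of axons. Amigo2 was the highest member of the whole set. Its values were 509, 807, 695 and 677 in crypt EC, 523, 496, 462 and 650.3 in villus EC, 0.400 to 0.982 in crypt epi and 1.21 to 1.84 in villus epi, so no EC library came near an epi library. The log2 difference was 8.62 ± 0.16 (SE) in the crypt (limma adjusted p = 8.36e-15) and 7.72 ± 0.16 in the villus (adjusted p = 5.09e-14). Between villus and crypt, EC did not pass the test (-0.33 ± 0.16, limma adjusted p = 0.166), while the low epi level was higher in the villus (0.58 ± 0.16, adjusted p = 0.00699), a call lost with a pseudocount of 5. Amigo1 was at 3.43 to 8.23 in crypt EC and 4.90 to 9.93 in villus EC, against 1.57 to 2.52 in crypt epi and 0.156 to 0.514 in villus epi. It was higher in EC by 1.25 ± 0.23 in the crypt (limma adjusted p = 0.000425) and 2.53 ± 0.23 in the villus (adjusted p = 1.48e-07), and epi was lower in the villus than in the crypt by a log2 difference of -1.15 ± 0.23 (adjusted p = 0.000599). Amigo3 was spread across all groups, at 3.95 to 4.46 in crypt EC, 3.70 to 6.21 in crypt epi, 3.95 to 6.70 in villus EC, and 5.47, 0.191, 3.04 and 3.16 in villus epi. Its crypt difference was -0.19 ± 0.37, and its villus difference of 0.89 ± 0.37 (limma adjusted p = 0.0493) was called narrowly: the call was lost in 13 of the 16 fits that left out 1 library, and without villus epi replicate 2 the difference was 0.39 (adjusted p = 0.0881).

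Amigo2 lies on mouse chromosome 15 (GRCm38, bases 97244125 to 97247287, minus strand) and its annotated exon shares 58 bases, 1.83% of its length, with Pced1b on the opposite strand. Ncam2 lies on chromosome 16 (81200697 to 81626828, plus strand), Cntnap2 on chromosome 6 (45059357 to 47304213, plus strand) and Lrrtm1 on chromosome 6 (77242689 to 77257791, plus strand) inside an intron of Ctnna2, with 0 shared exonic bases. These 4 are among the members called higher in EC at both sites, and the 250 bases before their RefSeq start (GRCm38.p6, each read 5′ to 3′ on the gene's own strand) are shown to let their base composition be compared. The RefSeq start used for Cntnap2 lies inside the span given above, and a further RefSeq start of that gene has a window that is not shown. Capitals mark GGGCGG, the GC box core bound by Sp factors, and CAGCACC, the left part of the RE1 element bound by the neuronal gene repressor REST, each searched on both strands.
Amigo2, chr15:97247288-97247537, minus strand: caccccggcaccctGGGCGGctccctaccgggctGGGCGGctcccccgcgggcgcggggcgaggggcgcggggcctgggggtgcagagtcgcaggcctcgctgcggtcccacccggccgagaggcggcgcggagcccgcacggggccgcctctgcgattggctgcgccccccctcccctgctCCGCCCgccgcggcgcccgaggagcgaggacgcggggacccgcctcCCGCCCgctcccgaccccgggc
Ncam2, chr16:81200447-81200696, plus strand: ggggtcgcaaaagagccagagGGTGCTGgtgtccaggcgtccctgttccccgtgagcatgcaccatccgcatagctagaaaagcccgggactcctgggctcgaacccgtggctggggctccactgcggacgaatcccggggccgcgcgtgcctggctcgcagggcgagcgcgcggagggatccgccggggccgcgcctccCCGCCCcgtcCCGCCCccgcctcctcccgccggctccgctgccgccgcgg
Cntnap2, chr6:45059811-45060060, plus strand: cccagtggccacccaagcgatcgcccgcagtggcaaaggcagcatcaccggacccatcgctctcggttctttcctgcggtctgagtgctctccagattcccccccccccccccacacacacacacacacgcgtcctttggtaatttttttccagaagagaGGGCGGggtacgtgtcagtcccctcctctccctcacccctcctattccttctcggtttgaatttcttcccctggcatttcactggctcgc
Lrrtm1, chr6:77242227-77242476, plus strand: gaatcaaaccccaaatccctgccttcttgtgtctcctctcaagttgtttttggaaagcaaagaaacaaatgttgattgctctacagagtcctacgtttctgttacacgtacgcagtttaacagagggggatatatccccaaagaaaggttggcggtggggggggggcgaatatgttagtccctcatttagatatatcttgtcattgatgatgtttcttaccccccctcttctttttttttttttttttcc

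The Amigo2 window was 84.0% G and C with 38 CG pairs and 4 GC boxes. That of Ncam2 was 75.2% with 32 CG pairs, 2 GC boxes and 1 CAGCACC. Cntnap2 had 59.6%, 13 CG pairs and 1 GC box, while Lrrtm1 had 42.0%, 5 CG pairs and neither motif. Amigo1 and Tenm4, also called higher at both sites with a mean of at least 5 in both EC groups, had windows that are not shown. That of Amigo1 had 64.0%, 20 CG pairs and 1 GC box. Those of Tenm4 had 50.8% and 51.6%, 4 and 8 CG pairs and neither motif. Over all 32851 RefSeq windows of this length the medians were 52.4% and 6 CG pairs, GGGCGG was in 32.74% and CAGCACC in 5.73%. The table used here held windows for 43 of the 112 members, among them 10 of the 29 called higher at both sites, and the other members' windows were not analysed here. GGGCGG was in 5 of their 13 windows and CAGCACC in 1. The E-box CAGATG was in 0 of the 13 (all windows: 14.44%), the homeobox core TAATTA in 0 (4.84%), TATAAA in 1 (12.37%) and GGACAG, the right part of RE1, in 1 (18.67%). A match of letters is a description and shows no binding.

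Neurexins are presynaptic receptors, and both tested ones were highest in crypt EC. Nrxn2 stood at 2.56, 2.61, 1.95 and 2.59 in crypt EC, 2.12, 1.68, 1.08 and 1.32 in villus EC, 0.0543 to 0.0766 in crypt epi and, in villus epi, 0.188, 0.999, 0.186 and 0.228. EC was higher by 1.68 ± 0.18 in the crypt (limma adjusted p = 1.51e-06) and 0.89 ± 0.18 in the villus (adjusted p = 0.000436), and the crypt gap was the larger (interaction -0.79 ± 0.25, adjusted p = 0.0182). Nrxn3 was at 1.26 to 2.32 in crypt EC and only 0.0929 to 0.719 in villus EC, with epi libraries at 0.0249 to 0.311 in the crypt and 0.110 to 0.635 in the villus. It was higher in EC in the crypt by 1.35 ± 0.18 (limma adjusted p = 1.53e-05), while the villus difference was 0.15 ± 0.18 (adjusted p = 0.496), and EC cells of the villus were lower than those of the crypt by a log2 difference of -1.05 ± 0.18 (adjusted p = 0.000339). The 3 neuroligins, the classical receptors for neurexins, were not tested and peaked between 0.356 and 0.842.

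Contactin-associated and contactin proteins organise axon membranes and their contacts with glia. Cntnap2 (CASPR2), which clusters potassium channels on axons, stood at 4.28, 12.1, 13.3 and 15.9 in crypt EC and 49.7, 41.6, 48.3 and 44.1 in villus EC, against 0.142 to 0.283 in crypt epi and 0.101 to 0.599 in villus epi. The 3 ranges of crypt EC, villus EC and epi did not overlap. EC exceeded epi by 3.25 ± 0.28 in the crypt (limma adjusted p = 1.41e-07) and 5.09 ± 0.28 in the villus (adjusted p = 3.52e-10), and villus EC exceeded crypt EC by 2.04 ± 0.28 (adjusted p = 5.03e-05). The difference between the sites was 1.84 ± 0.39 (limma adjusted p = 0.00142). Cntn4, a contactin of sensory and olfactory axons, had the reverse order, with 1.80 to 2.21 in crypt EC, 0.153 to 0.766 in villus EC and 0.0978 to 0.343 in crypt epi. In villus epi it read 0, 6.84, 0.143 and 0.137. The crypt difference of 1.34 ± 0.47 (limma adjusted p = 0.0324) lost its call in 8 of the 16 fits that left out 1 library and had an adjusted p of 6.53e-07 without villus epi replicate 2. In the villus the difference was -0.42 ± 0.47 (limma adjusted p = 0.46), and 0.29 (adjusted p = 0.0933) without that library. Over the contactin-associated family 2 of 7 members were tested and both were called higher in EC at both sites (all tested genes: 17.5%). Both passed the filter through the EC libraries, so this count is a description. The second, Cntnap4, had overlapping villus libraries, with villus EC replicate 4 at 1.379 and villus epi replicate 2 at 1.388. Of the 6 contactins only Cntn4 was tested.

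NCAM and L1 proteins are immunoglobulin-type molecules that guide axons. Ncam2, known best from olfactory neurons, stood at 9.84, 13.1, 13.02 and 14.0 in crypt EC and 32.5, 28.8, 29.2 and 30.2 in villus EC, with 0.148 to 0.195 in crypt epi. Villus epi read 0.548, 2.46, 0.181 and 0.349. The lowest EC library was thus above the highest epi library at both sites. EC exceeded epi by 3.50 ± 0.26 in the crypt (limma adjusted p = 2.59e-08) and 4.19 ± 0.26 in the villus (adjusted p = 1.37e-09), and villus EC exceeded crypt EC by 1.22 ± 0.26 (adjusted p = 0.00222). Ncam1, the family's best known member and a marker of nerve, glia and natural killer cells, was below 1 in all EC libraries (group means 0.384 in the crypt and 0.577 in the villus). It entered the list of 20 through crypt epi replicate 4 at 20.8, where the other 3 crypt epi libraries were at 0.288, 0.288 and 0.444, and it did not pass the filter.

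L1cam changed sides between crypt and villus. It stood at 7.72, 13.6, 13.7 and 16.4 in crypt EC and 21.4, 20.5, 22.5 and 17.7 in crypt epi, but at 34.9, 33.8, 36.9 and 29.6 in villus EC and 1.24, 1.57, 1.61 and 1.03 in villus epi. Every crypt EC library was below every crypt epi library, and every villus EC library was far above every villus epi library. In the crypt EC was lower by a log2 difference of -0.68 ± 0.19 (limma adjusted p = 0.0087), in the villus higher by 3.88 ± 0.19 (adjusted p = 1.07e-10), and the difference between the sites was 4.56 ± 0.27 (adjusted p = 1.14e-08), the largest of the tested members. Scaling each library to an equal total ended the crypt call (-0.17, limma adjusted p = 0.48), and the other differences named here kept theirs. Along the crypt to villus axis EC was higher in the villus by 1.37 ± 0.19 (adjusted p = 5.88e-05) while epi fell by 3.19 on the log2 scale (adjusted p = 1.59e-09).

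Nrcam, the L1 relative of nodes of Ranvier, had the opposite pattern in EC cells. Its values were 4.11, 7.23, 5.25 and 6.60 in crypt EC, 1.30, 0.809, 1.35 and 1.69 in villus EC, 0.105 to 0.416 in crypt epi, and 0.908, 2.82, 0.580 and 0.268 in villus epi. Crypt EC was above all other groups in every library. EC was higher in the crypt by 2.46 ± 0.28 (limma adjusted p = 2.89e-06), fell from crypt to villus by a log2 difference of -1.56 ± 0.28 (adjusted p = 0.000523), and did not pass the test in the villus (0.21 ± 0.28, adjusted p = 0.523). Without villus epi replicate 2 the villus difference was 0.54 and was called (limma adjusted p = 0.0211). The epi difference of 0.69 between villus and crypt (adjusted p = 0.0452) was 0.37 (adjusted p = 0.109) without that library.

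SynCAM proteins are immunoglobulin adhesion molecules of synapses and of several epithelia. Cadm1 was at 0.563 to 1.28 in crypt EC and 7.76, 6.38, 7.48 and 7.24 in villus EC, with 0.350 to 1.34 in crypt epi and 0.831, 7.26, 0.480 and 0.422 in villus epi. All villus EC libraries were above all crypt libraries, and villus epi replicate 2 was within their range. EC exceeded epi in the villus by 1.79 ± 0.42 (limma adjusted p = 0.00171) and by 2.39 (adjusted p = 1.31e-08) without that library. In the crypt the difference was 0.26 ± 0.42 (adjusted p = 0.663). Between sites EC was higher in the villus by 2.05 ± 0.42 (limma adjusted p = 0.0018).

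Among the leucine-rich repeat families, FLRT, LRRTM, SALM and SLITRK proteins are mostly postsynaptic organisers. Flrt1 was at 4.07, 7.03, 8.49 and 8.82 in crypt EC and 11.4, 10.5, 9.55 and 10.5 in villus EC, while all 8 epi libraries were between 0.0319 and 0.124. It was higher in EC by 2.86 ± 0.18 in the crypt (limma adjusted p = 4.33e-09) and 3.39 ± 0.18 in the villus (adjusted p = 2.47e-10). The further difference of 0.55 ± 0.18 between villus and crypt EC (adjusted p = 0.0331) lost its call in 5 of the 16 fits that left out 1 library. Flrt3, a ligand of latrophilins and of netrin receptors, was the member most clearly on the epithelial side. It stood at 33.6, 29.3, 23.9 and 28.5 in crypt epi and 8.28, 10.9, 8.40 and 9.31 in crypt EC, with 7.16 to 14.7 in villus EC and 10.3 to 13.7 in villus epi. Crypt epi was above each of the other groups in every library. EC was lower in the crypt by -1.54 ± 0.19 (limma adjusted p = 9.23e-06), villus epi was lower than crypt epi by -1.15 ± 0.19 (adjusted p = 0.000103), and the villus difference of -0.10 ± 0.19 (adjusted p = 0.687) turned to 0.49 (adjusted p = 0.0431) with each library scaled to an equal total. Flrt1 and Flrt3 each lie inside a larger gene, Macrod1 and Macrod2 in that order.

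Lrrtm1, a postsynaptic partner of neurexins, was at 6.11, 5.48, 6.31 and 7.12 in crypt EC and 3.49, 6.79, 6.85 and 6.65 in villus EC, against 0.232 to 0.382 in crypt epi and 0 to 0.0973 in villus epi. It was higher in EC by 2.48 ± 0.17 in the crypt (limma adjusted p = 1.26e-08) and 2.69 ± 0.17 in the villus (adjusted p = 1.97e-09), with no called difference between villus and crypt EC (-0.09 ± 0.17, adjusted p = 0.773). Its relative Lrrtm2, named outside the naming rule, had group means of 1.64 to 3.19 and was not called in either EC comparison. Lrfn4 (SALM3) was at 0.824 to 1.65 in crypt EC and 1.26 to 3.22 in villus EC, against 0.198 to 0.826 and 0.0179 to 0.153 in epi. Its EC difference was 0.62 ± 0.19 in the crypt (limma adjusted p = 0.0153; lost without crypt EC replicate 1) and 1.60 ± 0.19 in the villus (adjusted p = 2.62e-06). No SLITRK gene was tested, and their highest group means were 0.338 to 1.26.

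Teneurins are very large presynaptic proteins that bind latrophilins. Tenm4 was at 8.36, 4.18, 6.36 and 5.46 in crypt EC and 16.5, 17.6, 14.5 and 8.60 in villus EC, against 0.0753 to 0.414 in crypt epi. Villus epi read 0.0275, 1.98, 0.0939 and 0.0308. The EC ranges lay wholly above the epi ranges. EC exceeded epi by 2.51 ± 0.32 in the crypt (limma adjusted p = 1.24e-05) and 3.45 ± 0.32 in the villus (adjusted p = 1.69e-07). Villus EC exceeded crypt EC by 1.10 ± 0.32 (adjusted p = 0.019), a call lost in 3 of the 16 fits that left out 1 library. Without villus epi replicate 2 this difference had a limma adjusted p of 0.000515. Tenm1 was lower and less divided, at 2.24 to 2.69 in crypt EC, 4.47 to 5.78 in villus EC and 0.660 to 1.47 in crypt epi, with 1.25, 4.93, 1.57 and 2.54 in villus epi, where replicate 2 was within the villus EC range. EC was higher by 0.71 ± 0.24 in the crypt (limma adjusted p = 0.0284, lost in 5 of the 16 fits that left out 1 library) and 0.85 ± 0.24 in the villus (adjusted p = 0.00669). Without villus epi replicate 2 the differences were 0.71 (limma adjusted p = 0.00121) and 1.13 (adjusted p = 2.31e-05). Tenm1 shares 8.25% of its exonic bases with Sh2d1a.

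Protocadherins fall into single genes scattered over the genome and the alpha, beta and gamma clusters, whose isoforms give neurons a surface identity. Of the single genes, Pcdh1, an adhesion protein of airway and other epithelia, had the highest level. It stood at 35.9 to 43.5 in crypt EC, 27.4 to 30.4 in crypt epi, 47.6 to 61.3 in villus EC, and 41.3, 2.47, 45.8 and 41.1 in villus epi. With all libraries no comparison passed the test (crypt 0.43 ± 0.59, limma adjusted p = 0.597; villus 1.21 ± 0.59, adjusted p = 0.0892). Without villus epi replicate 2 the crypt difference was 0.43 (adjusted p = 0.000501), the villus difference 0.29 (adjusted p = 0.011), and villus epi turned from -0.37 to 0.55 above crypt epi (adjusted p = 9.87e-05). Pcdh9 was at 1.02 to 3.45 in crypt EC and 7.64, 10.1, 9.20 and 8.26 in villus EC, against 0 to 0.0215 in crypt epi and 0.565, 2.82, 0.0204 and 0.191 in villus epi. EC exceeded epi by 1.61 ± 0.33 in the crypt (limma adjusted p = 0.000941) and 2.57 ± 0.33 in the villus (adjusted p = 5.54e-06), and EC was higher in the villus by 1.67 ± 0.33 (adjusted p = 0.00129). Pcdh8 (arcadlin), which drives the uptake of cadherins at active synapses, was higher in the crypt in both cell types. Its values were 2.25 to 5.41 in crypt EC, 1.53 to 2.87 in crypt epi, 1.12 to 1.76 in villus EC and at most 0.0412 in villus epi. From crypt to villus EC changed by -0.78 ± 0.20 (limma adjusted p = 0.00893) and epi by -1.62 ± 0.20 (adjusted p = 4.97e-06).

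The gamma cluster was the clustered family with the highest level and it followed the EC sort. The 22 gamma genes summed to 59.9 ± 2.36 (SD, n = 4) in EC and 15.7 ± 1.22 in epi of the crypt, and to 68.9 ± 3.31 and 3.17 ± 0.725 in the villus. In the beta cluster 22 genes summed to 13.1 ± 1.31 and 1.33 ± 0.251 in the crypt and 18.4 ± 1.27 and 2.74 ± 3.92 in the villus, the last with 1 library at 8.61. The 9 alpha genes summed to under 0.7 in every library. All 4 EC libraries were above all 4 epi libraries for 20 of the 22 gamma genes at each site, for 16 beta genes in the crypt and 14 in the villus, and for 2 and 1 alpha genes (all genes with no filter: 26.3% and 26.4%). Of the 13 gamma genes tested 12 were called higher in EC in the crypt and 13 in the villus, and all 4 beta genes tested were called higher at both sites (all tested genes: 23.2% and 40.6%). Those 4 beta genes were below 1 in every epi library and so passed the filter through the EC libraries. Gamma genes share 27.8% to 66.7% of their exonic bases with one another and alpha genes 38.0% to 53.6%. Isoforms of these clusters are known to splice to common 3′ exons, so the split of reads between isoforms is uncertain and the sums are the firmer values.

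**Figure D3:**
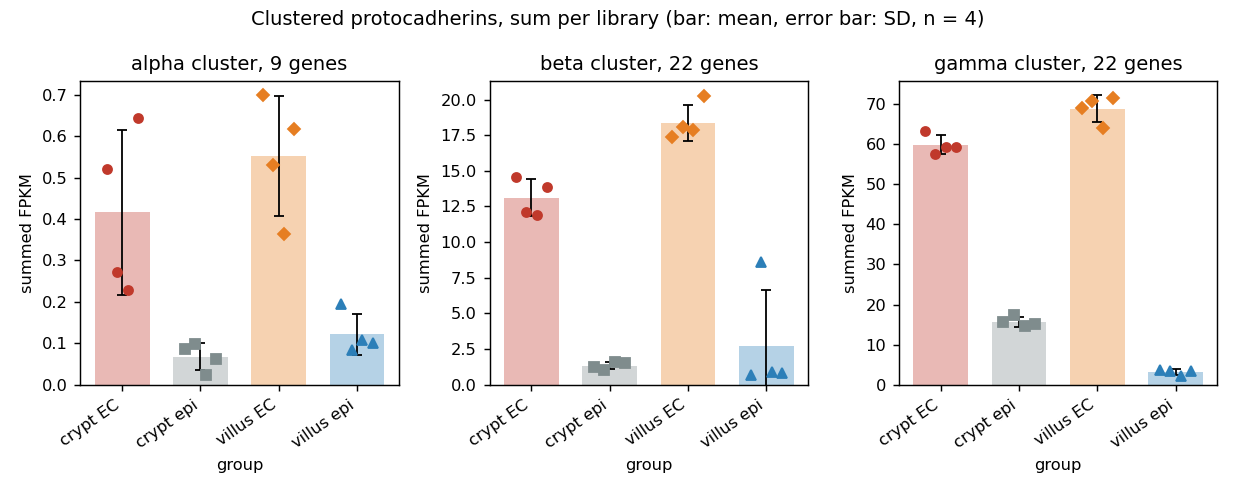
Summed FPKM (y axis, linear, from 0, a separate scale in each panel) of the alpha, beta and gamma protocadherin clusters in the 4 groups (x axis). Bars are means, error bars SD and points the 4 libraries of a group. The gamma sum is near 60 in crypt EC and 69 in villus EC and lowest in villus epi, and 1 villus epi library stands out in the beta panel.

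Pcdhgc4, an isoform that neurons need for survival, made up 41% of the gamma sum in EC and 52.4% in epi of the crypt, and 36.9% and 33.8% in the villus. It was at 21.9 to 26.9 in crypt EC, 7.60 to 9.44 in crypt epi and 22.2 to 28.9 in villus EC, with 1.30, 0.174, 0.781 and 2.04 in villus epi. EC was higher by 1.47 ± 0.23 in the crypt (limma adjusted p = 7.06e-05) and 3.75 ± 0.23 in the villus (adjusted p = 1.07e-09). EC cells of villus and crypt did not differ beyond the test (0.05 ± 0.23, adjusted p = 0.928), and epi was lower in the villus by -2.23 ± 0.23 (adjusted p = 5.51e-07). Pcdhgc3, the most widely used gamma isoform, was at 4.00 to 5.23 in crypt EC, 2.79 to 3.84 in crypt epi, 5.76 to 8.91 in villus EC and 0.317 to 0.576 in villus epi. Its EC difference was 0.37 ± 0.16 in the crypt (limma adjusted p = 0.0674) and 2.48 ± 0.16 in the villus (adjusted p = 1.67e-09). With an equal total per library the crypt difference was 0.82 (adjusted p = 0.000326). Pcdhgb6 was higher in EC by 1.99 ± 0.13 and 2.80 ± 0.13, Pcdhga7 by 2.28 ± 0.12 and 2.73 ± 0.12, and Pcdhb17 by 1.76 ± 0.13 and 2.39 ± 0.13 (crypt, then villus), all called. Their highest epi library was at 0.625, 0.514 and 0.405 in that order, and their lowest EC library at 4.31, 5.53 and 2.43.

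Between the sites, the EC cells of the villus and of the crypt differed in 18 tested members: 15 were higher in the villus (all genes: 10.3%) and 3, Nrcam, Nrxn3 and Pcdh8, were lower (16.2%). With each library scaled to an equal total the split was 10 and 8, where 3503 of all genes were lower, against 2282 with the deposited values. Without villus EC replicate 2 the higher count was 8 (all genes: 1149, against 1454 with all libraries). Without villus epi replicate 2 the counts were 21 and 5, where 3848 of all genes were lower. The largest increases were those of Cadm1, Cntnap2, Pcdh9, L1cam, Ncam2 and Tenm4. Among named members the calls for Cadm1, Cntnap2, Pcdh9, L1cam, Pcdhb19, Nrcam and Nrxn3 held under every alternative that could fit them. In epi 3 members, Amigo2, Nrcam and Tenm1, were higher in the villus (all genes: 19.6%) and 8 were lower (35.4%). The lower ones were L1cam, Pcdhgc4, Pcdh8, Pcdhgc3, Flrt3, Amigo1, Pcdhgb6 and Pcdhga7. With equal totals the split was 1 and 9, where 1977 of all genes were higher, against 2761 with the deposited values. The calls for Nrcam and Tenm1 were lost without villus epi replicate 2, Tenm1 moving from 0.63 (limma adjusted p = 0.0396) to 0.35 (adjusted p = 0.0847). The higher count was 1 without crypt epi replicate 1 or replicate 2 (all genes: 2470 and 2448). It was 5 without villus epi replicate 3 (all genes: 2661). The gap between EC and epi itself differed between the sites for 21 members. It was larger in the villus for 16 (all genes: 26.9%) and larger in the crypt for 5 (16%), Amigo2, Nrcam, Nrxn2, Nrxn3 and Cntn4. Under an equal total the split was 13 and 7, and the counts of all genes in that fit are not given here. That count of 5 was 3 without any 1 of the crypt EC libraries (all genes: 1999 to 2067, against 2258 with all libraries). With villus epi replicate 2 left out the interaction of Cntn4 moved from -1.76 to -1.05, and those of Cadm1 (2.13), Pcdh9 (1.37), Tenm4 (1.31) and Ncam2 (1.02) were called. Markers of other cell types also moved with the site. Paneth cell markers summed to 5874 to 8941 in crypt EC and 51.8 to 95.1 in villus EC, and to 180370 to 210028 in crypt epi and 268 to 515 in villus epi. Markers of other endocrine cells summed to 308 to 583 in crypt EC and 1026 to 4116 in villus EC, and those of stem and cycling cells to 845 to 1418 and 4.25 to 5.53. In epi, absorptive cell markers summed to 1825 to 5702 in the crypt and 46216 to 78691 in the villus. The part of these in the members' values was not tested.

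Villus epi replicate 2 held the highest value of its group for 60 of the 112 members and more than the other 3 libraries summed for 50. It had 25 members above 1, where the other 3 had 7 to 10. Its low values step in units 2.30 times the size of the median library's. On that scale the steps were 0.818 to 0.92 in crypt EC, 0.883 to 0.979 in crypt epi and 1.02 to 1.09 in villus EC. They were 1.265 to 1.36 in the other villus epi libraries, so the step differed with the group. Depth and any scaling between libraries cannot be told apart in this measure. The library also had the highest sums of its group for lymphocyte markers (33.8, lowest of the group 3.96), stromal and endothelial markers (165, lowest 8.85) and glial markers (169, lowest 47.2). The part of these in the members' values was not tested. Its Pcdh1 was 2.47 where the others were above 41, its Lrrtm2 0.277 and its Amigo3 0.191, each the lowest of its group. Limma's estimated library weight was 0.0221, the least of the 16.

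**Figure D4:**
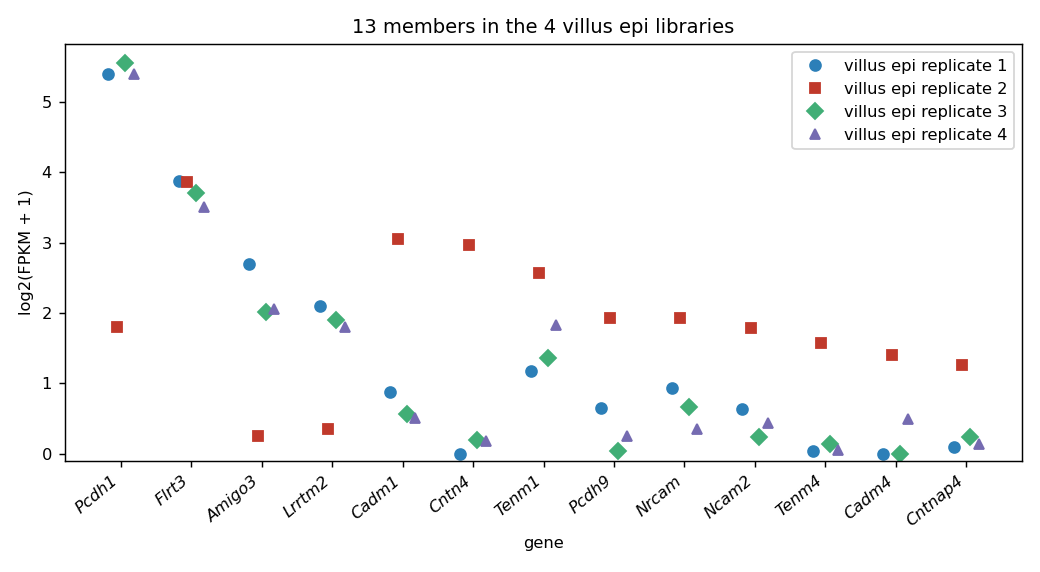
Levels of 13 members (x axis) in the 4 villus epi libraries, as log2(FPKM + 1) on the y axis. Replicate 2 (red squares) is below the others for Pcdh1, Amigo3 and Lrrtm2 and above them for Cadm1, Cntn4, Tenm1, Pcdh9, Nrcam, Ncam2, Tenm4, Cadm4 and Cntnap4. The genes were chosen after their values were seen.

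Markers of neurons and glia were set beside these results. Of 14 neuron markers 13 were in the table, 6 were tested, all 6 were higher in EC in the crypt (all tested genes: 23.2%) and 5 in the villus (40.6%). A gene below 1 in the epi libraries passes the filter only through the EC libraries, so these counts describe which genes were called. The 13 summed to 186 to 325 in crypt EC and 725 to 761 in villus EC, against 1.41 to 4.86 in crypt epi and 4.04 to 10.997 in villus epi. The list holds genes known from neurons and from EC cells, such as Snap25, and the source of this RNA was not tested. Elavl4, a neuronal RNA-binding protein, was at means of 1.86 and 0.139 in EC and epi of the crypt, and 1.11 and 0.414 in the villus. The glial gene S100b was at 0.468 in crypt EC and 0.590 in villus EC, and glial sums were 41.2 to 58.3 in the EC libraries and 35.8 to 54.8 in crypt epi. Sums of stromal and endothelial markers were 155 to 236 in crypt EC, 24.6 to 43.4 in villus EC and 5.51 to 8.56 in crypt epi, with Vim (vimentin) at 160, 14.4 and 2.46, while the collagen gene Col1a1 was at 0.491, 0.520 and 0.515. Myeloid sums were 135 to 152, 24.9 to 43.4 and 26.0 to 31.7 in the same order, with C1qa at 125, 19.3 and 0.165 and C1qb at 0.0479, 0.284 and 0.0638. The part of these markers in the members' values was not tested. The leucocyte gene Ptprc was at 0.651 and 0.787 in EC. No listed marker was at 0 in all libraries of a group.

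The binding partners on the cell surface held genes called in both directions. From a list of 55 such genes 29 were tested: 12 were higher and 6 lower in EC in the crypt (all tested genes: 23.2% and 20%), and 17 higher and 5 lower in the villus (40.6% and 21.6%). The median log2 difference was 0.35 in the crypt (all tested genes 0.05) and 0.72 in the villus (0.33). Nfasc (neurofascin), the L1 family partner of Nrcam at nodes, was at 43.7 ± 10.6 (SD, n = 4) in crypt EC and 1.41 ± 0.463 in crypt epi, and at 26.6 ± 3.78 and 0.844 ± 0.578 in the villus (log2 differences 4.21 and 3.94, limma adjusted p = 9.44e-10 and 7.93e-10). Ptprs, the receptor phosphatase that binds SLITRK, TrkC and SALM proteins, was higher in EC by 2.27 in the crypt and 4.33 in the villus, whereas its relative Ptprd was lower by -0.78 and -1.46, all called. The crypt call of Ptprd was narrow (limma adjusted p = 0.0498) and was lost in 12 of the 16 fits that left out 1 library. Without villus epi replicate 2 its crypt difference was the same, with a limma adjusted p of 0.0021. Cbln3, a cerebellin, was at 11.9 ± 1.45 in villus EC and 0.408 ± 0.278 in villus epi (3.20, limma adjusted p = 7.9e-09). In the crypt Cbln3 was higher in EC by 1.41 (limma adjusted p = 0.000127). Nptn (neuroplastin) was higher in EC by 1.18 in the crypt and 0.51 in the villus. Its villus call was lost with median-ratio scaling and with the library number as a block. Igsf9 was lower in EC by -2.45 and -2.83 (-3.58 in the villus without villus epi replicate 2). The latrophilins split. Adgrl1 was higher in EC at both sites (0.75 and 1.31), and Adgrl2 was lower in the crypt (-0.70) and higher in the villus (0.95). The crypt call of Adgrl2 (limma adjusted p = 0.0343) was lost in 4 of the 16 fits that left out 1 library. Without villus epi replicate 2 that limma adjusted p was 0.0171. Adgrl3, the highest of them at means of 7.44 to 8.59, was not called at either site (-0.14 and 0.10). Its villus difference without villus epi replicate 2 was 0.51 and was called (limma adjusted p = 0.0256).

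Scaffold proteins hold these receptors from the inside. Of 68 listed genes 55 were tested, with 20 higher and 10 lower in the crypt (median 0.27; all tested genes: 23.2% and 20%). In the villus 25 were higher and 13 lower (median 0.54; all tested genes: 40.6% and 21.6%), shares near those of all genes. Without villus epi replicate 2 the crypt count of lower genes was 18, and the share of all genes in that fit is not given here. Dlg2 (PSD-93) was at 5.71 ± 2.29 in crypt EC and 0.0907 ± 0.0584 in crypt epi, and 15.2 ± 2.13 and 0.365 ± 0.275 in the villus (2.54 and 3.58, limma adjusted p = 3.94e-07 and 3.24e-09). The active zone genes Rims2 and Erc1 were higher in crypt EC by 2.81 and 2.72, and Cyfip2 in villus EC by 3.65. Dlg4 (PSD-95) was higher by 1.52 and 1.09, while Cask, the scaffold that binds the neurexin tail, was lower by -1.09 and -1.64, all called, though the crypt call of Cask was lost with equal totals. Gphn (gephyrin), the scaffold of inhibitory synapses, differed by -0.01 in the crypt (not called; 0.50, called, with equal totals) and 1.89 in the villus (called). Homer2 was lower in EC in the crypt (-1.70) and not called in the villus (-0.06, and 0.56, called, with equal totals). Ank3 was lower in the villus (-3.32) and not called in the crypt (-0.48, called without villus epi replicate 2). Ppfia3 was lower by -0.83 in the crypt and -3.27 in the villus, its crypt call lost with a pseudocount of 5.

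Enzymes that modify or cut these molecules were also listed. Of 12 genes for the polysialylation of NCAM and the shedding of adhesion molecules 8 were tested, with 2 higher and 1 lower in the crypt (all tested genes: 23.2% and 20%) and 2 higher and 2 lower in the villus (40.6% and 21.6%). Without villus epi replicate 2 the counts were 3 and 4 in the crypt and 4 and 4 in the villus. The shares of all genes in that fit are not given here. Bace1, the beta-secretase, was at 69.8 ± 2.38 in crypt EC and 12.9 ± 0.846 in crypt epi (2.36, limma adjusted p = 0.00354), and Psen2 of the gamma-secretase was higher in villus EC by 2.08 (adjusted p = 0.000376; 2.68 without villus epi replicate 2). The villus difference of Bace1 was 0.97 (limma adjusted p = 0.157) with all libraries and 1.86 (adjusted p = 9.82e-11) without that one. The sheddase Adam17 was lower at both sites (-0.48 and -0.50), which equal totals turned to 0.023 and 0.088, neither called. St8sia4, which adds polysialic acid to NCAM, was below 1 in every group mean and was not tested. Among 13 tested cadherins of 25 listed, 6 were higher and 0 lower in the crypt (all tested genes: 23.2% and 20%), and 5 higher and 1 lower in the villus (40.6% and 21.6%). Without villus epi replicate 2 the counts of lower genes were 1 and 3, again with no share of all genes given. Cdh4 was higher in EC in the crypt (2.22, limma adjusted p = 8.76e-06) and in the villus (1.53, adjusted p = 0.000175). Cdh1 (E-cadherin) was higher in villus EC (1.49, limma adjusted p = 0.0363), and Cdhr2, of the brush border, was lower in villus EC (-1.38, adjusted p = 0.0192). Both moved with villus epi replicate 2, where Cdh1 was at 18.05 (others at least 214) and Cdhr2 at 198 (at least 1333). Without it Cdh1 differed by 0.59 (limma adjusted p = 4.27e-06) and Cdhr2 by -2.09 (adjusted p = 1.36e-09).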

How the data were processed

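Gene-level FPKM values of 16 libraries (4 in each of 4 groups) were used as deposited by the authors. Per the submitters' processing notes the tools were bcl2fastq 2.20, kallisto and sleuth with genome build mm10; the sources used here do not give the annotation release, strandedness or any scaling between libraries. Per the labels' protocols, cDNA was made with a full-length ultra-low-input kit and fragmented by transposase. No per-sample column was left unused (0).

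Values were taken as log2(FPKM + 1). Genes at 1 or more in at least 4 libraries were tested with limma 3.58.1 (R 4.3.3; trended variance) in 1 fit of the 4 group means, with p-values adjusted by Benjamini-Hochberg over 14089 genes. A log2 fold change on this scale understates the change of low genes. The script was tested on simulated data. The contrasts were EC against epi at each site, villus against crypt in each cell type, and their interaction. Positions came from GENCODE for GRCm38, and promoter windows from RefSeq. Summaries used Python 3.11.15 with pandas 2.3.3 and matplotlib 3.10.9.

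Named were all members with a mean of at least 5 in any group, the 3 called members below 5 with the largest change per contrast, and up to 4 called genes of each partner list per EC comparison, besides a fixed few; values of some single genes are not reported here. The members and lists were chosen with earlier results of these data known. Replicate numbers are those of the sample titles, which differ from the library numbers. Libraries with the same title number did not deviate together (correlations from -0.268 to 0.17), so numbers were not used as pairs. Alternatives changed the pseudocount, filter, scaling, block, weights, variance trend and libraries included; those for the partner lists and their named genes were added after seeing the data.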

Additional observations from a re-analysis of the deposited data

Results flagged for a closer look

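In 12 of 120 sets of 4 libraries, over 30 named members and 4 groups, 1 library lay far from the other 3, by Dixon's ratio. For independent, normally spread values chance would flag about 1 in 20 such sets, here 6.0. These values were FPKM, some near 0, of genes measured in the same libraries, so 6.0 is only a rough guide. Of the 12 flags, 7 were villus epi replicate 2. In that library Cadm1 was at 7.26 (others at most 0.831), Cntn4 at 6.84 (at most 0.143), Ncam2 at 2.46 (at most 0.548), Tenm4 at 1.98 (at most 0.0939), Nrxn2 at 0.999 (at most 0.228) and Nrxn3 at 0.635 (at most 0.183), while Pcdh1 was at 2.47 (others at least 41.1). Elsewhere Ncam1 was at 20.8 in crypt epi replicate 4 (others at most 0.444), Lrfn4 at 0.826 in crypt epi replicate 4 (at most 0.285) and at 0.153 in villus epi replicate 4 (at most 0.0371), Lrrtm1 at 3.49 in villus EC replicate 1 (at least 6.65) and Nrxn2 at 1.95 in crypt EC replicate 3 (at least 2.56).

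The EC against epi difference differed between villus and crypt by limma's interaction term for 19 named members. It was larger in the villus for L1cam (4.56), Pcdhgc4 (2.28), Pcdhgc3 (2.11), Cntnap2 (1.84), Flrt3 (1.45, where EC was lower in the crypt), Amigo1 (1.27), Lrfn4 (0.98), Pcdhgb7 (0.85), Pcdh8 (0.85, lost in 4 of the 16 fits that left out 1 library and, at 0.57, with equal totals), Pcdhgb6 (0.81), Pcdhga11 (0.76), Pcdhb19 (0.71), Pcdhb17 (0.63) and Pcdhga7 (0.44, lost in 13 of the 16). It was larger in the crypt for Nrcam (-2.25), Cntn4 (-1.76, lost in 11 of 16, and -1.05 without villus epi replicate 2), Nrxn3 (-1.20), Amigo2 (-0.90) and Nrxn2 (-0.79).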

How the results depend on the processing

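Of the named members 24 were called in EC against epi in the crypt and 24 in the villus, and 20 and 23 of these kept their call under every alternative that could fit them. In villus against crypt EC 7 of 16 did, in epi 6 of 11 and for the interaction 10 of 19. The members below 5 counted here were named for being called with the largest changes, so these shares do not stand for all members. Signs of called values did not turn with a pseudocount of 0.1 or 5, but 61 and 79 of 94 moved by over 1.5 times. Reversed were Pcdh1 in villus against crypt epi (-0.37 with all libraries, -0.70 to 0.55 with 1 left out, the 0.55 without villus epi replicate 2, and 0.54 with library weights) and, with equal totals, Flrt3 (0.49), Homer2 (0.56), Psenen (0.35) and Adam17 (0.088) in villus EC against epi, and Gphn (0.50) and Adam17 (0.023) in the crypt. The causes were not tested.

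Of the counts of called members, no filter gave 51 higher and 4 lower in the crypt (all genes: 3541 and 2783). It gave 56 and 4 in the villus (6010 and 3356), and 5 lower in villus against crypt EC (2341). A minimum of 5 in 4 libraries, which tests fewer genes, gave 11 higher in the crypt and 15 in the villus (all genes: 2440 and 4633). Between sites it gave 8 higher and 0 lower in EC (1200 and 1912) and 1 higher in epi (2304). For the interaction it gave 9 and 1 (3274 and 1912). Equal totals for all libraries, with the filter applied after scaling, gave 42 higher in the crypt and 44 in the villus. The matching counts of all genes are not given here. Such totals gave 1 lower in the crypt (all genes: 1433), 8 lower in EC between sites (3503) and 1 higher in epi between sites (1977). They moved the median of all genes to 0.51 in the crypt and 0.80 in the villus, from 0.05 and 0.33. Median-ratio scaling, with 1 lower in the villus (all genes: 3729), moved it to -0.09 and 0.11. A pseudocount of 0.1 gave 5 higher in EC and 6 in epi between sites (all genes: 1166 and 2824), and one of 5 gave 0 in epi (2651). Library weights gave 6 lower in EC between sites (all genes: 4169, against 2282 as reported). A fit of only the groups compared gave 5 lower in EC (all genes: 3759) and 1 higher in epi (all genes: 1979). A minimum mean of 2 was reached by 34 members and one of 10 by 9.

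With a replicate block by title number the counts were 32 and 2 in the crypt (all genes: 3158 and 2703) and 34 and 0 in the villus (5626 and 2973). Between sites they were 14 and 3 in EC (1351 and 2124) and 2 and 9 in epi (2692 and 4897). For the interaction they were 15 and 4 (3650 and 2185). As a block the library number also does not pair the libraries. It gave 6 higher in EC between sites (all genes: 609) and 0 in epi (2255). For the interaction it gave 9 and 2 (2832 and 1642). Among named members it ended the calls of Tenm1, Pcdh8, Lrfn4, Pcdhb17, Flrt1, Tenm4, Pcdhga11 and Pcdhgc3 in EC between sites, of Tenm1, Nrcam, Amigo2 and Pcdhga7 in epi, of Nrxn2, Pcdh8, Lrfn4, Pcdhb17, Amigo2, Cntn4, Pcdhga7 and Pcdhgb7 for the interaction, of Lrfn4 in the crypt and of Amigo3 in the villus.

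Leaving out 1 library gave 28 to 35 higher and 2 lower in the crypt, 32 to 36 and 0 in the villus, 8 to 21 and 2 to 5 in EC between sites, 1 to 5 and 8 to 10 in epi, 13 to 20 and 3 to 5 for the interaction, and 18 to 20 members with a mean of at least 5. Counts of all genes are given above for only some of these fits, so the ranges describe the members alone. Counts of the partner lists moved by over 1.5 times under some settings (surface partners in the crypt 7 to 16 higher, 2 to 7 lower). Depth is unknown in absolute terms, which limits what can be said of members below 1.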
